A study of Homo sapiens with 2 samples.

Results

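The genes described here repair broken DNA or signal its presence: 41 genes of homologous recombination, non-homologous end joining, the Fanconi anaemia pathway, single-strand break repair and the checkpoint, chosen by gene symbol from a list. Of these, 37 had a probe set with 1 gene symbol, out of 18132 genes on the array, and 33 passed the filter on low values, out of 12220. BRCA2, FANCA, FANCD2 and RBBP8 are not analysed here. BARD1, ATRIP, TP53BP1 and RNF168 were measured only below the filter. Expression was compared on Affymetrix PrimeView arrays between HCT116 cells with a scrambled hairpin, labelled NC and Scr, and HCT116 cells with the hairpin shSUN2-1 against SUN2. HCT116 is a human colorectal carcinoma line known for defective mismatch repair and wild-type p53. Both groups grew at 37 °C and 5% CO2 in DMEM with 10% FBS, and each array was labelled from 100 ng of total RNA. Each group was 1 array, the knockdown was made with 1 hairpin, and the sources used here name no time after hairpin delivery. There are therefore no replicates and no test, and no value below has a p-value or an error between cultures.

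A double-strand break is rejoined by 2 main routes. In end joining, the Ku heterodimer holds the ends, recruits the kinase DNA-PKcs, and a ligase complex seals them, in any phase of the cell cycle. In homologous recombination, the ends are cut back and copied from the sister chromatid, which confines the route mostly to cells that have replicated their DNA. SUN2 spans the inner nuclear membrane as part of the LINC complex, which ties the nucleus to the cytoskeleton; SUN proteins are known to associate with DNA-PK, and LINC complexes to influence the choice between the routes.

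A probe set is a group of short probes for 1 transcript region, and a difference is the knockdown minus the control value on the log2(intensity + 16) scale. A gene is given by its brightest probe set, and past the filter means a mean level at or above an intensity of 108, the median of all probe sets. Within a gene, probe sets varied about the mean of that gene by an SD of 0.09, a measure of probe error only. SUN2 itself went from 498 (control) to 407 (knockdown), a difference of -0.28, and its 4 probe sets past the filter differed by -0.39 to -0.07. The epithelial markers EPCAM, KRT8, KRT18 and KRT19 read above 1000 on both arrays, and 11 of 12 epithelial markers passed the filter. CDX1, CLDN3 and CDX2 read only 163, 213 and 233 (control). KRT20 was the marker with the greatest difference (0.88, 1.85-fold), from 91.1 to 182. Its control value lies under the filter, which it passed through the knockdown array. Of the measured markers of other cell types, 2 of 7 fibroblast, 4 of 6 endothelial and 2 of 6 immune markers passed, each lower on the knockdown array, with differences of -0.13 to -0.03. They were COL1A1, PDGFRB, PECAM1, VWF, KDR, CLDN5, CD3E and CD68, the brightest being PDGFRB at 254 (control). COL1A2, COL3A1, DCN, LUM, FAP, CDH5, TEK, PTPRC, CD14, LYZ and MS4A1 were below the filter, and the part of these markers in the results was not tested. The differences also moved with intensity: the median over all genes was -0.04 in the dimmest of 10 intensity bins and 0.10 in the brightest.

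Differences of the break repair genes were small. Only XRCC5 lay past 1.2-fold (0.26 in log2) on its brightest probe set, 1 of 33 members, where 6.83% of all genes past the filter did so, 5.95% higher and 0.884% lower. No member reached 1.5-fold, as did 0.36% of all genes. Of the 33 members, 19 were higher and 14 lower on the knockdown array, with a median of 0.03, beside 49.8% of all genes higher and a median of -0.0009. The members' count therefore did not exceed the background, and what follows describes how the roles within the list differed. Over single probe sets past the filter, 5 of 70 lay past 1.2-fold, all higher (3 of NBN, 1 of XRCC5 and 1 of PRKDC), beside 7.02% of all probe sets. The control value of 1 of the 3 NBN probe sets lay under the filter.

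**Figure D1:**
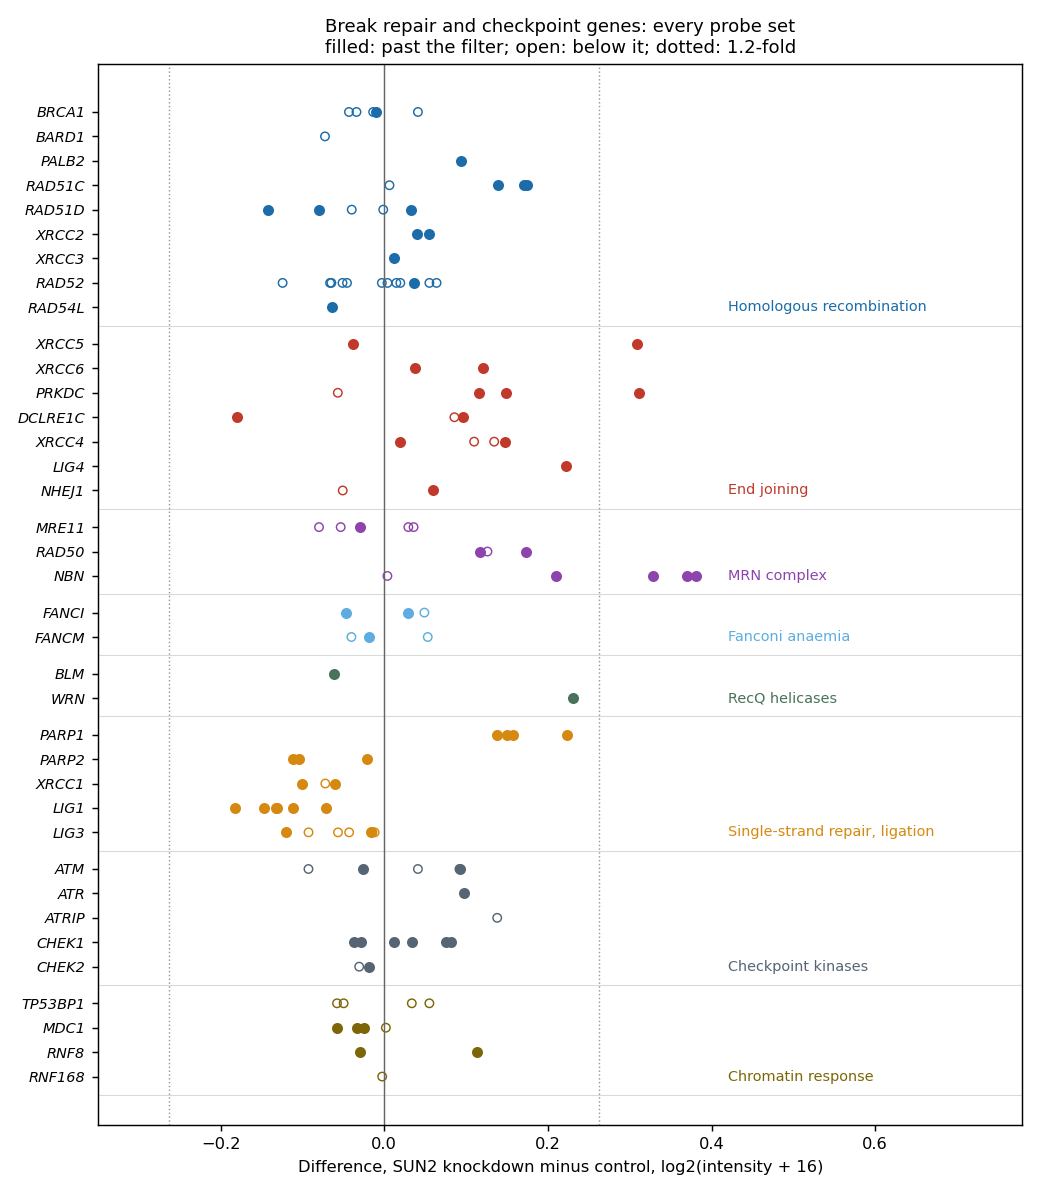
Each point is 1 probe set of a member, placed by its difference between the knockdown and the control array on the log2(intensity + 16) scale; rows are genes grouped by role, filled points are past the filter, open points below it, and dotted lines mark 1.2-fold. All points of LIG1, LIG3, XRCC1 and PARP2 lie left of 0 and all of PARP1 right of it, and 3 NBN points lie past the upper dotted line.

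End joining genes were higher on the knockdown array in 6 of 7 cases, beside 49.8% of all genes, with a median of 0.15. Quantile normalization and loess correction left 6 higher but lowered the median to 0.06 and 0.08, and the median of each gene's probe sets past the filter gave 0.08. XRCC5 and PRKDC lay in intensity bin 9 of 10 and XRCC6 in bin 10. The medians of all genes in those bins were 0.09 and 0.10. XRCC5, the larger Ku subunit, went from 612 (control) to 762 (knockdown), a difference of 0.31 or 1.24-fold. Its other probe set went from 321 to 313 (-0.04). The 2 XRCC5 probe sets thus disagreed in direction, and their mean was 0.14. XRCC6, the smaller Ku subunit, was higher on both probe sets, from 1702 to 1852 (0.12) and from 1164 to 1194 (0.04). The gene stood at only 0.015 after loess correction. Both are of the _s_at and _x_at classes, whose probes can match other transcripts.

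PRKDC, which encodes the DNA-PK catalytic subunit, was higher on all 3 probe sets past the filter. They went from 593 to 660 (0.15), from 457 to 570 (0.31) and from 199 to 217 (0.12), while the dim one below it differed by -0.06. Of 2595 genes with at least 3 probe sets past the filter, 262 (10.1%) were at least as far above 0 on every one as PRKDC. Its brightest probe set stood at only 0.04 after quantile normalization. LIG4, the ligase of end joining, went from 105 to 125 (0.22) on its 1 probe set, of the _x_at class. Its control value lies under the filter, which it passed through the knockdown array. XRCC4, the partner that stabilises LIG4, was higher on all 4 of its probe sets, from 183 to 205 on the brightest (0.15) and by 0.02 to 0.15 in all. NHEJ1, which encodes the XRCC4-like factor XLF, went from 152 to 159 (0.06).

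DCLRE1C, which encodes the nuclease Artemis that opens hairpin ends, was the exception. Its brightest probe set was lower, from 158 to 138 (-0.18), the lowest value of any member on its brightest probe set. A second probe set past the filter was higher, from 117 to 126 (0.10), as was one below the filter (0.09), and the mean of all 3 was 0.0004.

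Homologous recombination genes had a median of 0.02, with 5 of 8 past the filter higher, beside 49.8% of all genes. RAD51C, which takes part in Holliday junction processing, was higher on its 3 probe sets past the filter. It went from 724 to 819 (0.17), from 559 to 631 (0.17) and from 477 to 527 (0.14), and 7.63% of genes with as many probe sets were at least as far above 0 on each. After quantile normalization it stood at 0.07, and the median of all genes in its intensity bin was 0.09. The 7.63% here and the 10.1% of PRKDC measure distance from 0 and do not allow for intensity. RAD51D, which joins RAD51C and XRCC2 in one complex, was lower on its brightest probe set, from 211 to 190 (-0.14). The other 2 past the filter differed by -0.08 and 0.03. XRCC2 was higher by 0.05 and 0.04 on its 2 probe sets, both _x_at, and XRCC3, the partner of RAD51C in a second complex, by 0.01.

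The loading factors and strand exchange proteins past the filter differed by -0.06 to 0.09 on their brightest probe sets. BRCA1, which promotes end resection and recruits PALB2, read 244 and 242 (-0.01), and its 4 dimmer probe sets ran from -0.04 to 0.04. PALB2, which bridges BRCA1 and BRCA2, went from 125 to 134 (0.09) on 1 probe set. BARD1, the ring-finger partner of BRCA1, was below the filter at 85.2 and 80.3. RAD54L, a motor protein of strand exchange, went from 179 to 170 (-0.06), and RAD52, an annealing protein, from 119 to 122 (0.04). The other 11 RAD52 probe sets were below the filter and ran from -0.12 to 0.06.

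Set side by side, the end joining median exceeded the recombination median by 0.12, a gap with no replicate error to set it against. Of the 7 end joining genes, 6 lay above the recombination median, and XRCC5 lay above every recombination gene. LIG4 did too, but had passed the filter only through the array where it was high; without it, a choice made after seeing the data, the end joining median was 0.13 and the gap 0.11. Only RAD51C of the 8 recombination genes lay above the end joining median, and DCLRE1C lay below all of them. Of all 12220 genes past the filter, 1799 lay above RAD51C, the highest recombination gene, and 1045 below RAD51D, the lowest. Above the end joining median, the value of XRCC4, lay 2270. The recombination median lies between XRCC3 and RAD52, which had 5723 and 4935 genes above them. Over single probe sets the medians were 0.12 and 0.04, with 11 of 13 end joining and 9 of 13 recombination probe sets higher. The gap was smaller after allowing for intensity: after taking off the median of each gene's intensity bin, the medians were 0.10 and 0.07, a gap of 0.04. With quantile normalization the gap was 0.03, with loess correction 0.03, and with the median of each gene's probe sets past the filter 0.06. Widening recombination by the Fanconi anaemia genes and RecQ helicases left it at 0.13. The end joining median was the higher one under all 14 alternatives, with gaps of 0.03 to 0.14. All 14 reuse the same 2 arrays. Median centring cannot change the gap, and the filter at the 75th percentile left 3 end joining and 2 recombination genes. Their count is therefore no measure of error.

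**Figure D2:**
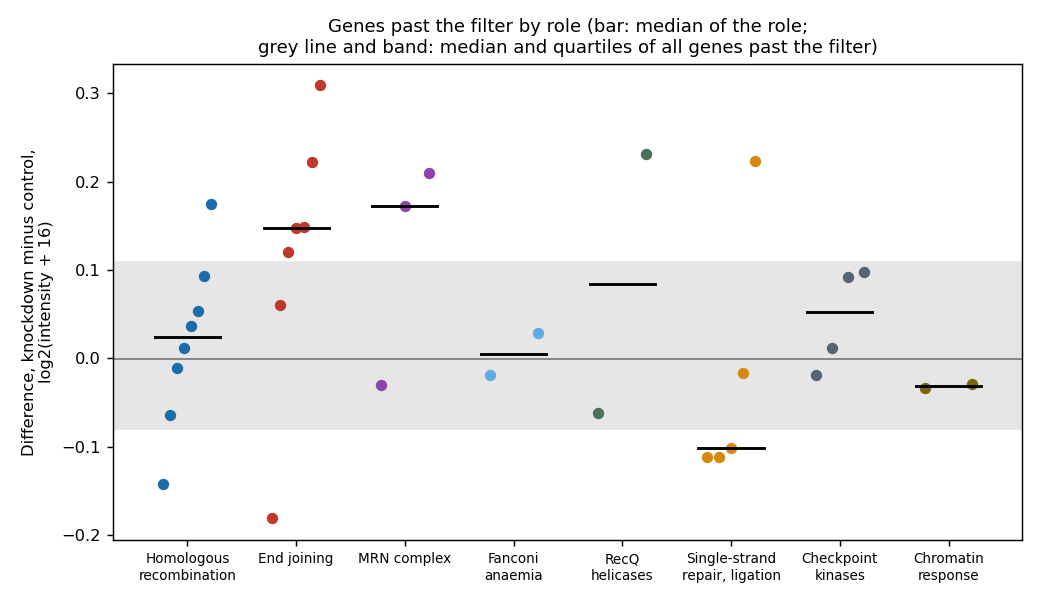
Each point is 1 gene past the filter, by role, with its difference between knockdown and control on the log2(intensity + 16) scale; bars are role medians, and the grey line and band are the median (-0.0009) and quartiles (-0.08 and 0.11) of all 12220 genes. The end joining bar stands at 0.15 and the recombination bar at 0.02, with overlapping points.

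**Figure D3:**
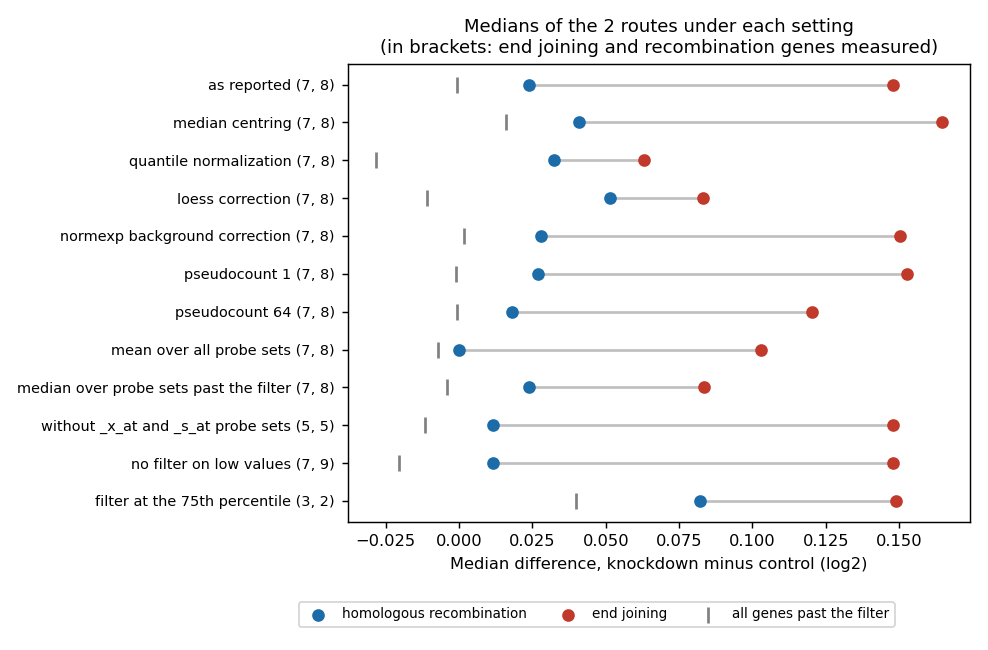
Median difference of the end joining genes (red), the recombination genes (blue) and all genes past the filter (grey tick) under each processing setting, in log2 units, with the number of genes of both routes in brackets. Red lies right of blue throughout, by 0.03 with quantile normalization and loess and by 0.12 as reported.

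**Figure D4:**
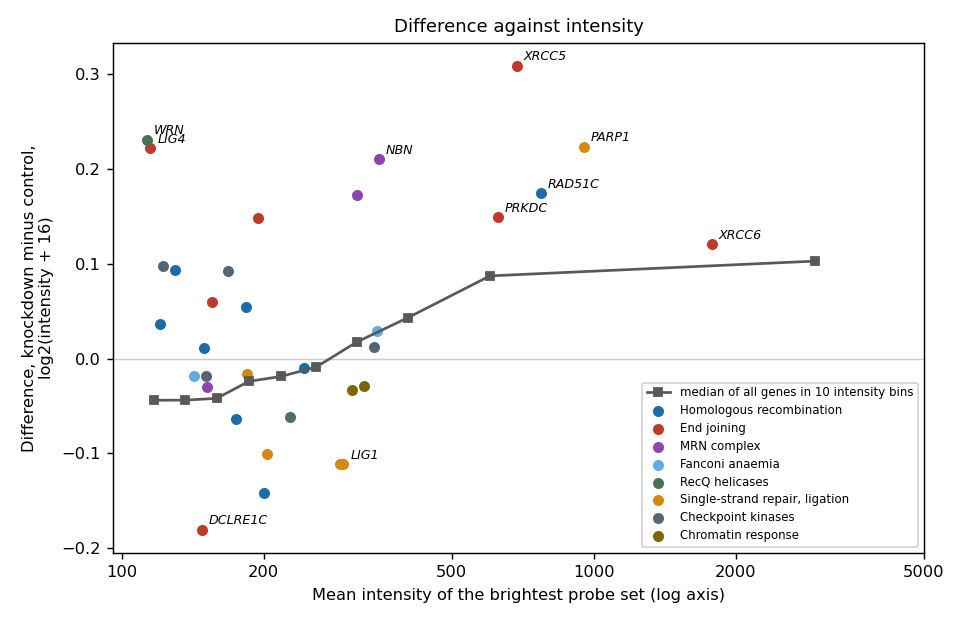
Difference of each member (points, coloured by role) against the mean intensity of its brightest probe set (log axis), with the median of all genes in 10 intensity bins (grey squares and line). The line climbs from -0.04 to 0.10; XRCC6 lies close to it, while XRCC5, NBN, LIG4 and WRN lie 0.19 to 0.27 above it.

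The MRN complex, which senses breaks, starts resection for recombination and serves both routes, was split. NBN, the subunit that brings ATM to the break, was higher on all 4 probe sets past the filter. They went from 323 to 377 (0.21), from 150 to 199.9 (0.38), from 117 to 155 (0.37) and from 104 to 134 (0.33). The last of these had a control value under the filter, which it passed through the knockdown array. The 1 NBN probe set below the filter differed by 0.0038. RAD50, the ATPase of the complex, was higher on all 3 of its probe sets, from 295 to 334 (0.17) and from 169 to 184 (0.12) on those past the filter. MRE11, the nuclease, read 154 and 150 (-0.03), and its 4 dim probe sets ran from -0.08 to 0.04. NBN was higher under every setting, from 0.16 to 0.35, and RAD50 from 0.12 to 0.19.

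Single-strand break repair genes divided by gene and not by probe set. PARP1, the enzyme that marks breaks with poly(ADP-ribose), was higher on all 4 probe sets. It went from 878 to 1027 (0.22), from 364 to 405 (0.15), from 235 to 264 (0.16) and from 231 to 256 (0.14), and its brightest stood at 0.10 after quantile normalization. The other 4 genes were lower on every probe set, 13 of 13 past the filter and 7 of 7 below it. PARP1 was set apart after its values were seen. LIG1 alone gave 6 of the 13, and LIG3 most of the 7. Probe sets of 1 gene are not independent, so these counts describe 4 genes on 1 pair of arrays. Of all probe sets, 49.0% past the filter and 66.4% below it were lower.

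LIG1, the ligase that joins Okazaki fragments and long repair patches, was lower on 6 of 6 probe sets, by -0.18 to -0.07. The brightest went from 307 to 283 (-0.11) and the dimmest from 153 to 133 (-0.18). The other 4 read 301 to 303 (control) and 271 to 286 (knockdown), so near to one another that they may share probes, which was not checked. Of 225 genes with at least 6 probe sets past the filter, 4 (1.78%) were at least as far below 0 on each. PARP2, a second poly(ADP-ribose) polymerase, went from 303 to 279 (-0.11), from 125 to 123 (-0.02) and from 126 to 116 (-0.10). XRCC1, the scaffold that holds the repair ligase, went from 211 to 196 (-0.10) and from 165 to 158 (-0.06). LIG3, that ligase, went from 185 to 183 (-0.02) and from 150 to 137 (-0.12). LIG1, PARP2 and XRCC1 stayed below 0 under every setting, at -0.15 to -0.02, while LIG3 stood at 0.001 after median centring.

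**Figure D5:**
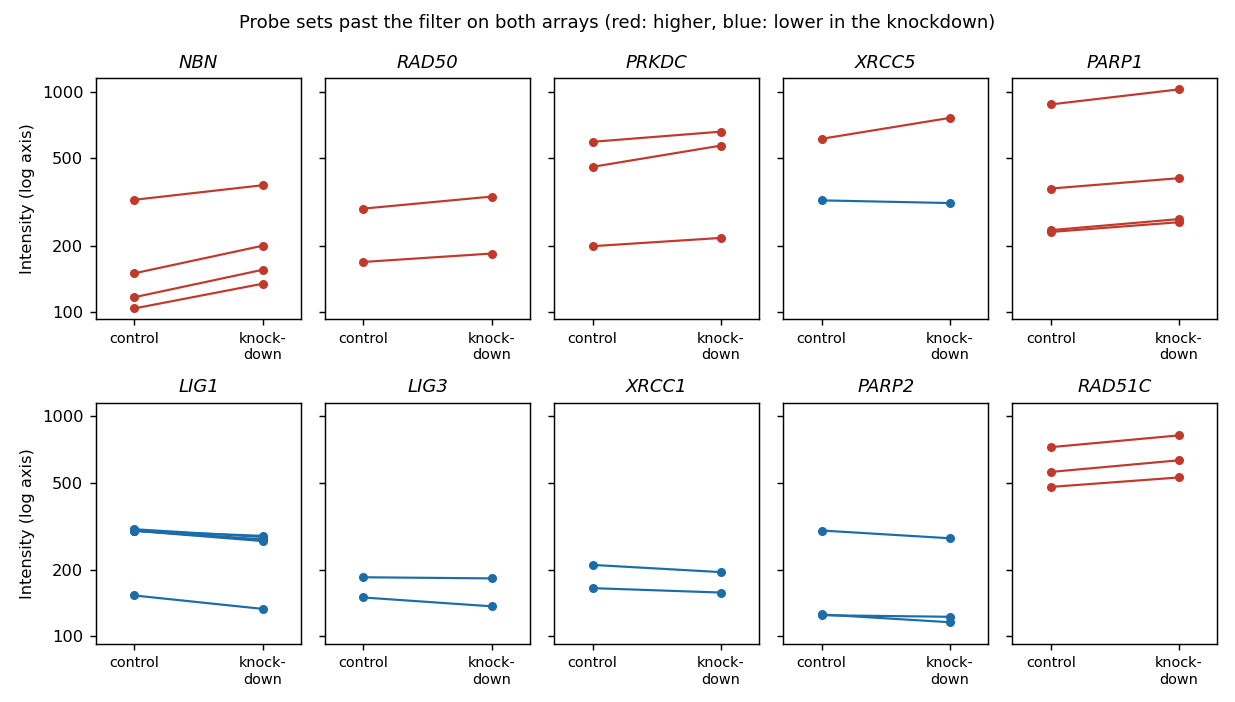
Intensity (log axis) of every probe set past the filter on the control and the knockdown array for 10 members; each line is 1 probe set, red where it was higher and blue where it was lower on the knockdown array. Lines of PARP1, NBN, RAD50, PRKDC and RAD51C all go up, those of LIG1, LIG3, XRCC1 and PARP2 all go down, and those of XRCC5 cross directions.

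The Fanconi anaemia genes, which unhook crosslinked strands, and the RecQ helicases gave little difference apart from WRN. FANCI, which is monoubiquitinated with FANCD2, read 345 and 352 (0.03), and its second probe set differed by -0.05. FANCM, the DNA translocase that recruits the core complex, read 143 and 141 (-0.02). BLM, the helicase that dissolves joint molecules, went from 232 to 222 (-0.06). WRN, the helicase that cells with defective mismatch repair and unstable repeats depend on, went from 103 to 123 (0.23) on its 1 probe set. As with LIG4, its control value lies under the filter.

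Checkpoint kinases past the filter were higher in 3 of 4 cases, by 0.10 at most, beside 49.8% of all genes higher. ATR, the kinase of stalled forks, went from 117 to 127 (0.10), and its partner ATRIP, below the filter, from 94.1 to 105 (0.14). ATM, the kinase that answers double-strand breaks, went from 162 to 174 (0.09), but a dimmer one past the filter differed by -0.03. CHEK1, the target kinase of ATR, read 340 and 343 (0.01), with 6 probe sets from -0.04 to 0.08. CHEK2, the target kinase of ATM, read 152 and 149.9 (-0.02).

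In the chromatin response, MDC1, which binds the phosphorylated histone next to a break, was lower on all 3 probe sets past the filter, from -0.06 to -0.03. Its brightest probe set read 312 and 304. RNF8, the ubiquitin ligase that MDC1 recruits, differed by -0.03 and 0.11 on its 2 probe sets. RNF168, the next ligase, read 73.8 and 73.7, and TP53BP1, which restrains resection, 100.2 and 95.7, both below the filter. Of 20 members with at least 2 probe sets past the filter, 8 were higher on all, 5 lower on all and 7 mixed. That is 65.0% in 1 direction, beside 63.9% of all 5786 such genes.

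Other genes of the same pathways were read from wider lists. Of 25 further recombination and Fanconi genes past the filter, 13 were higher and 12 lower (median 0.01), and quantile normalization turned this to 8 and 17 (median -0.045, beside -0.03 for all genes). RAD51AP1, which promotes joint molecule formation, was highest at 0.39 (255 to 338), with 3 probe sets from 0.11 to 0.40. On brightest probe sets, RAD51AP1 was the only gene of the wider pathway lists past 1.2-fold. It was followed by SWI5 (0.24) and the Fanconi ubiquitin ligase FANCL (0.16). The lowest were RPA1, the large subunit of the single-strand binding protein (-0.20, 1051 to 915), FANCG (-0.16) and the nuclease scaffold SLX4 (-0.15).

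Of 8 further end joining genes past the filter, 4 were higher and 4 lower, with a median of -0.0022. The gap polymerases went apart, POLM at 0.17 and POLL at -0.14, although the 2 POLM probe sets above the filter differed by -0.05 and 0.17. The end joining regulator CYREN stood at 0.12 and the end-cleaning enzyme TDP2 at 0.12, and TDP1 at -0.08 (its dimmer probe sets reach 0.17) and the Ku-binding factor PAXX at -0.07. The higher values of the core factors were thus not shared across the wider list.

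Of 25 further checkpoint and chromatin response genes past the filter, 21 were higher (median 0.09), against 49.8% of all genes, and 18 were higher after quantile normalization. None lay past 1.2-fold on its brightest probe set. CDC25A, the phosphatase that checkpoints degrade, stood at 0.26 (194 to 235), TOPBP1, the activator of ATR, at 0.25 (395 to 474), and the checkpoint clamp subunit RAD1 at 0.23 (294 to 349). Over probe sets past the filter, CDC25A ran from 0.01 to 0.30, TOPBP1 from 0.05 to 0.25 and RAD1 from 0.16 to 0.23. The lowest were MAD2L2, a shieldin subunit that blocks resection (-0.15), CDC25C (-0.13) and the acetyltransferase KAT5 (-0.07).

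Genes that move with replication or p53 activity were measured beside these, and their part in the values above was not tested. Of 23 S phase genes past the filter, 14 were higher (median 0.02), but 10 after quantile normalization. The E cyclins led, CCNE2 at 0.80 (184 to 334, 1.74-fold) and CCNE1 at 0.35, then CDC6 at 0.22 (-0.04 on its other probe set). The lowest on their brightest probe sets were MCM3 at -0.19, POLA1 at -0.15 and RRM2 at -0.09. Other probe sets past the filter reached 0.08 for MCM3 and 0.21 for RRM2, and went down to 0.08 for CCNE1. CCNE2 averaged 0.42 over its 2 probe sets. Of 18 p53 targets, 17 were higher (median 0.125), beside 49.8% of all genes. The highest on their brightest probe sets were MDM2 (0.39), CDKN1A (0.36) and TNFRSF10B (0.35). MDM2 varied between its 7 probe sets above the filter, with differences of -0.07 to 0.39, and averaged 0.04 over all 11. TP53INP1 stood at -0.18, ZMAT3 at 0.03 and TIGAR at 0.04.

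Several members start head to head with another gene, so that both are read outward from one stretch of DNA. Among the 36 members with a start in the RefSeq table of GRCh38.p14, 16 had such a neighbour within 1000 bases. The array measured both genes past the filter in 9 pairs, of which 4 were higher on both sides, 3 lower on both and 2 opposite. BRCA1 holds 2 of these pairs. Over all genes, 54.9% of 607 such pairs differed in the same direction. The end joining genes gave the widest joint differences. XRCC6 (0.12) starts 252 bases from DESI1, a desumoylating peptidase gene, which went from 256 to 328 (0.34) and by 0.24 on its other probe set. XRCC4 (0.15) starts 153 bases from TMEM167A, a gene of a small secretory pathway protein, which went from 1063 to 1371 (0.36) and by 0.33 on its other probe set. LIG4 (0.22) starts 43 bases from ABHD13, which differed by 0.21 but was below the filter, at 74.5 and 89.0.

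The other pairs were closer to 0. ATM (0.09) lies opposite NPAT, a coactivator of histone genes (0.04), and PALB2 (0.09) opposite the dynactin gene DCTN5 (0.02). MRE11 (-0.03) lies opposite ANKRD49 (-0.04), and BRCA1 (-0.01) opposite NBR1 (-0.03) and NBR2 (-0.04). In the opposite pairs, HSCB stood at 0.21 beside CHEK2 (-0.02), and ZFYVE21 at -0.14 beside XRCC3 (0.01).

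The stretches of the 3 end joining pairs are printed because both genes read outward from them, with RAD50 and LIG1, members that differed in 1 direction on every probe set past the filter. All are RefSeq sequences of GRCh38.p14, 5′ to 3′ on the member's strand and ending just before its start: chr22:41621045-41621294 (plus strand, 250 of the 252 bases to DESI1), chr5:83077394-83077546 (plus, up to TMEM167A), chr13:108218350-108218392 (minus, up to ABHD13), chr5:132556727-132556976 (plus) and chr19:48170345-48170594 (minus). Capitals mark matches, on either strand, to the motifs named in the next paragraph.
XRCC6: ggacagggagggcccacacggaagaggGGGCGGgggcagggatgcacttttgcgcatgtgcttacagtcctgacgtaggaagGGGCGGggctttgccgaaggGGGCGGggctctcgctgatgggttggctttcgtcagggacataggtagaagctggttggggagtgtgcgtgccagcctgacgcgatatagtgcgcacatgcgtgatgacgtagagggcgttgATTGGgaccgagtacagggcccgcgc
XRCC4: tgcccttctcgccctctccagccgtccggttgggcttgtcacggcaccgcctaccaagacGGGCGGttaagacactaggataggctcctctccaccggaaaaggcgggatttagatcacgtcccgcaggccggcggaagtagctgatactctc
LIG4: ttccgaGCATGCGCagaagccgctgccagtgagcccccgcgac
RAD50: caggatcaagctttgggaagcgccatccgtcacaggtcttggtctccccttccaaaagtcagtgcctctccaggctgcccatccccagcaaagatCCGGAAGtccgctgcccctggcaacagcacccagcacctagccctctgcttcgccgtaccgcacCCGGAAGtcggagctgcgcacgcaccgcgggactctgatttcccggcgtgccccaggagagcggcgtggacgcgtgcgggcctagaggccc
LIG1: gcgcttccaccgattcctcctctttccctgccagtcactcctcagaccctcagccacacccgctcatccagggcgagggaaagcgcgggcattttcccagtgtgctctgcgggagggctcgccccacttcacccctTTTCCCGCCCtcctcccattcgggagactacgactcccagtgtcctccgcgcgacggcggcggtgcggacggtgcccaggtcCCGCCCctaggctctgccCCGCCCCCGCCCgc

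Both strands of the 250 bases before the most upstream start of each gene were searched for 7 motifs, over 36 members and 27305 genes. The GC box GGGCGG was in 25 members (42.2% of all genes, 64.8% of those past the filter) and the CCAAT box CCAAT in 17 (33.0% and 34.7%). The ETS motif CCGGAAG was in 12 members (8.78% and 14.5%). They were ATM, ATR, BLM, BRCA2, FANCD2, LIG4, MRE11, PALB2, RAD50, RNF168, TP53BP1 and XRCC4. In XRCC4 and LIG4 the motif lies outside the printed stretch. It occurs 2 times in the printed RAD50 stretch, where no GC box was found. The NRF1 core GCGCATGC was in 2 members, LIG4 and XRCC2 (2.83% and 4.29%), and the CRE TGACGTCA in 2, PARP2 and XRCC2 (1.75% and 2.71%). The YY1 core AAGATGGC was in 1, PARP2 (1.39% and 1.68%). An E2F motif, TTTCCCGC, TTTGGCGC or TTTCGCGC, was in LIG1 alone of the 36 (2.36% and 3.80%), overlapping 1 of its 4 GC boxes. A match is letters only, and a missing match says nothing of the factor.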

How the data were processed

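The authors deposited probe set intensities on a linear scale. MAS5 and RMA appear in the submitters' processing notes without role or order; how the arrays were scaled is not stated in these sources, and the array medians were 109 (control) and 107 (knockdown). Of 49293 probe sets without the 102 controls, the platform annotation gave 1 symbol to 44988, and no member needed renaming through its Entrez ID. Of the control probe sets, 20 of 23 background ones were lower on the knockdown array (median -0.04), and all 18 hybridization spike-ins higher (median 0.09). The background difference widened with the number of G and C bases, from 0.01 at 3 to -0.14 at 23 and -0.33 at 25. Its part in the values of the members was not tested.

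From the deposited intensities, log2(intensity + 16) differences were computed per probe set with Python 3.11.15 and pandas 2.3.3. The quantile, loess and normexp corrections were made with limma 3.58.1. The other alternatives, made in Python, were centring, 2 pseudocounts, 3 other gene summaries and 2 other filters. The steps were tested on simulated data. The number of arrays limits the precision. The members, their roles, the wider lists and the thresholds were chosen with earlier results of these data known. All members are described; of each wider list, the 3 highest and 3 lowest genes are named, with any past 1.5-fold. Which genes were compared with the whole table on every probe set, and which promoters are printed, was chosen after their values were seen.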

Additional observations from a re-analysis of the deposited data

How the results depend on the processing

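No paired analysis was possible because there is 1 array for either condition, which also leaves none to omit. No value has an error between cultures. The number of members higher past 1.2-fold (1 as reported) was 0 with quantile normalization, 0 with loess and 0 with the mean over all probe sets, and 2 (PRKDC and XRCC5) without the _x_at and _s_at classes; with the median over probe sets past the filter the 1 member was NBN. With the filter at the 75th percentile 16 members were left, 9 of them higher. The number of wider pathway genes past 1.2-fold (1 as reported) was 3 with median centring and 3 with loess, 2 with quantile normalization, normexp, a pseudocount of 1 or when those classes were left out, and 0 with the mean over all probe sets. Of genes past 1.2-fold in the whole table, 87.1% were higher as reported, 60.8% with quantile normalization (375 higher, 242 lower) and 71.3% with loess (475 and 191). The mean over all probe sets left 373 higher and 47 lower genes, against 727 and 108. Of 359 single-member values under the alternatives, 344 moved by less than the SD between probe sets and 15 by more. Of 33 members, 9 were higher under some settings and lower under others: BRCA1, RAD52, FANCI, FANCM, LIG3, DCLRE1C, CHEK1, CHEK2 and RNF8.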
